A study of Mus musculus with 6 samples.

Results

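The 37 genes described here are type I interferon-stimulated genes, transcripts that many mouse cells switch on when interferon alpha or beta binds its receptor. They were taken by name from a list, and are 37 of the 27179 genes in the count table. The genes for OAS enzymes, IRF factors, STAT factors and RNA sensors were left out of the list by its rule. RNA was sequenced from leukaemia cells that carry the A/E9a oncogene, a variant of the AML1-ETO fusion, together with NRASG12D and an Ifnar1-/- genotype. Ifnar1 encodes 1 of the chains of the receptor for type I interferons. The strain is given as C57BL/6. After 3 days of vehicle or of panobinostat, green fluorescent cells that excluded a dye for dead cells were sorted out of the spleen. Panobinostat is an inhibitor of histone deacetylases. Each group has 3 libraries, and both groups carry the same fusion, NRASG12D and Ifnar1-/-. The labels do not give the dose, the genotype of the host animal, whether the leukaemia is 1 clone, or whether each library is a different animal. Test results therefore reflect the spread of these 6 libraries alone, which may be technical. Libraries are named by the numbers in the table's column names, which the labels do not link to their own replicate numbers. Depth was even, at 31989622 to 35962605 counts per library. Ifnar1 was counted at 35.7 to 48.0 CPM (counts scaled to library size) in all 6 libraries, which does not test the knockout label, since reads from outside a deleted part check nothing.

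Interferon alpha and beta signal through the receptor subunits Ifnar1 and Ifnar2 to the kinases Jak1 and Tyk2, which activate STAT factors. With Irf9 these form the factor ISGF3, which binds the interferon-stimulated response element (ISRE) in the promoters of target genes. Interferon gamma signals through another receptor, and its target genes often carry the GAS element. Many interferon-stimulated genes also have a level that needs no interferon, set by other factors. The list holds antiviral effectors (Ifit, Mx and Slfn proteins, Rsad2, Bst2, Isg20, Eif2ak2), the ubiquitin-like modifier Isg15 with enzymes that attach or remove it (Herc6, Trim25, Usp18), ADP-ribosylation enzymes (Parp9, Parp12, Parp14, with Dtx3l), proteins of nuclear bodies and DNA sensing (Sp100, Ifi204, Ifi205), and the chemokine Cxcl10.

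Promoter sequence is shown first, since the ISRE is what the best-known members share. RefSeq promoter windows (GRCm38.p6, 250 bases before to 50 after a start site) were at hand for 27 of the 37 members. The ISRE core was searched as GAAA, any 2 bases and GAAA on either strand, and 12 of the 27 held it (44.4%), against 3.99% of 27025 genes with a window. The sequences below are printed 5′ to 3′ on the gene's strand, with capitals marking the core. They are 3 Ifit genes, Isg15, Bst2, Rsad2 and Cxcl10, chosen to set members that were well counted in these libraries beside members near the detection limit.
Isg15, chr4:156200855-156200916, minus strand, -98 to -37 from the start: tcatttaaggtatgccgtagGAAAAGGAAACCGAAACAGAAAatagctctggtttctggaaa
Bst2, chr8:71537567-71537622, minus strand, -150 to -95: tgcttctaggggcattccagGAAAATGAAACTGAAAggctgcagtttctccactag
Ifit1, chr19:34640765-34640833, plus strand, -124 to -56: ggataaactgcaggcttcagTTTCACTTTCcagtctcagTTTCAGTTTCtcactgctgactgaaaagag
Ifit3, chr19:34583353-34583436, plus strand, -176 to -93: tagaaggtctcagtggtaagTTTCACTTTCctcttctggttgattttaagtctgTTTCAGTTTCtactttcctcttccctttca
Ifit3b, chr19:34607749-34607832, plus strand, -208 to -125: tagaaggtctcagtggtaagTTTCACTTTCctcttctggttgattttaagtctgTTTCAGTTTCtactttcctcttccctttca
Rsad2, chr12:26456543-26456592, minus strand, -140 to -91: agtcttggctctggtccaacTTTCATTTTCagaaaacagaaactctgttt
Cxcl10, chr5:92349073-92349122, minus strand, -233 to -184: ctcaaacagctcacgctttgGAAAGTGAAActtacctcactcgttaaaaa

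Isg15 and Bst2 carried overlapping cores in a single run, Ifit1, Ifit3 and Ifit3b carried separate cores read on the opposite strand, and Rsad2 and Cxcl10 carried a single core. The stretches of Ifit3 and Ifit3b were identical over 84 bases, with 0 mismatches. Their transcripts are close copies too: 51.2% of the 50-base words in Ifit3 exons also occurred in Ifit3b, so how reads were divided between them is uncertain. A GAS-like motif, TTCNNNGAA on either strand, was found in 6 members with a window (22.2%), namely Ifi35, Isg20, Ifit2, Adar, Eif2ak2 and Bst2, against 9.55% of all genes. In Bst2 it overlapped the ISRE core. A match of letters is a description of the window and not a site shown to be bound.

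**Figure D1:**
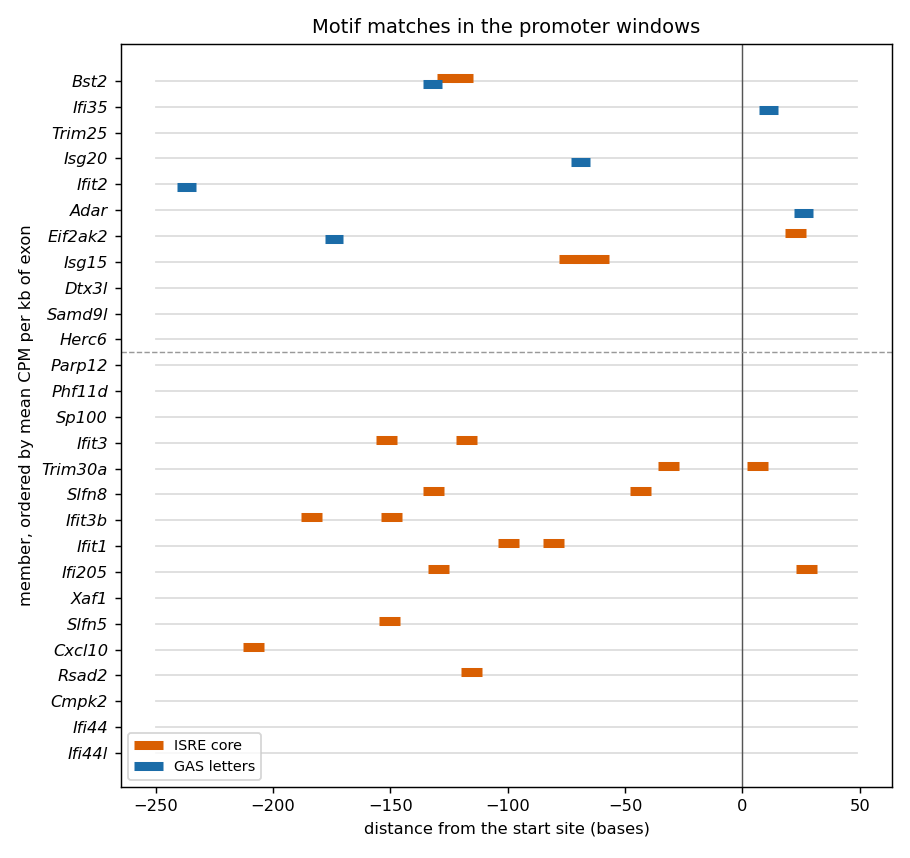
Matches of the ISRE core and of TTCNNNGAA in the promoter windows of the 27 members that had one, by distance from the annotated start site in bases, with members ordered from the highest (top) to the lowest mean CPM per kb of exon. Matches of genes with several annotated starts are drawn on 1 line, so 1 site of Slfn8 appears at 2 distances, and all TTCNNNGAA matches lie above the dashed line, which separates members over and under 1 CPM per kb.

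Some members were well counted in these receptor-knockout cells and others were close to 0. Of the 37 members, 31 had enough counts to be tested, 3 were low (Mx1, Rtp4, Cmpk2) and 3 were undetected, with at most 3 counts in every library (Mx2, Ifi44, Ifi44l). All members together took 0.0712 to 0.109% of a library's counts. To compare genes, mean CPM was divided by exon length, and a line of 1 CPM per kb was placed in a gap after the values were seen. It left 14 members above, the lowest of them Herc6 at 3.03 CPM per kb, and 23 below, the highest Ifi27l2a at 0.955. Herc6 and Ifi27l2a are the members just above and just below it.

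Ly6e, a lipid-anchored surface protein that restricts some viruses, was the most abundant member per length at 95.2 CPM per kb (chr15:74955025-74959904) and made up 32.8 to 43.2% of the members' summed CPM. Its levels were 475, 278 and 229 CPM with vehicle and 396, 389 and 395 CPM with panobinostat, in libraries 1, 2 and 3 in that order, as in all such series of values. The panobinostat libraries lay within a narrow band, below vehicle library 1 and above vehicle libraries 2 and 3. Bst2, or tetherin, which holds budding virus at the cell surface, followed at 40.7 CPM per kb (chr8:71534255-71537472). It stood at 39.4, 33.5 and 26.6 CPM with vehicle and 33.0, 45.8 and 42.6 CPM with panobinostat, and the groups overlapped. Ifi35, at 22.1 CPM per kb, stood at 46.3, 34.7 and 27.5 CPM with vehicle and 37.9, 38.7 and 43.8 CPM with panobinostat, again with vehicle libraries 2 and 3 lowest. Isg20, an RNA exonuclease at 17.1 CPM per kb, ranged from 21.9 to 44.0 CPM.

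Among the Isg15 conjugation genes, the enzymes were not all as low as Usp18. Trim25, a ubiquitin ligase of the RIG-I pathway that is also an Isg15 ligase, stood at 19.7 CPM per kb, with 120, 103 and 101 CPM with vehicle and 116, 112 and 128 CPM with panobinostat. Herc6, the main Isg15 ligase of the mouse, ranged from 24.9 to 32.4 CPM. Isg15 itself (chr4:156199424-156200818) stood at 6.99 CPM per kb. Its values were 7.39, 4.56 and 2.64 CPM with vehicle and 3.89, 5.71 and 7.50 CPM with panobinostat, so the groups covered nearly the same range. Usp18, the protease that removes Isg15 and dampens Ifnar2 signalling, was at 0.483 CPM per kb. It stood at 0.790, 1.55 and 1.02 CPM with vehicle and 2.42, 0.984 and 1.33 CPM with panobinostat, with panobinostat library 1 alone above the rest.

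Adar and Eif2ak2, which act on double-stranded RNA, and Samd9l were in the upper class. Adar, which edits adenosine in double-stranded RNA, had 7.87 CPM per kb, with 74.8, 57.7 and 55.7 CPM with vehicle and 65.3, 64.7 and 65.2 CPM with panobinostat. The panobinostat libraries again lay between vehicle library 1 and vehicle libraries 2 and 3. Eif2ak2, the kinase PKR that stops translation, had 7.80 CPM per kb, with 39.7, 36.1 and 37.4 CPM with vehicle and 44.6, 44.4 and 36.9 CPM with panobinostat. Panobinostat libraries 1 and 2 were above every vehicle library, and library 3 was not. Samd9l, a translation inhibitor, had 3.90 CPM per kb, with 23.2, 14.8 and 17.7 CPM with vehicle and 20.5, 22.6 and 28.3 CPM with panobinostat. Zbp1, a sensor of Z-form nucleic acid that can trigger necroptosis, was in the lower class and did not exceed 0.537 CPM.

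The Ifit genes, whose proteins bind viral RNA, lie side by side on chromosome 19 and were counted at very different levels. Ifit2 (chr19:34550550-34576534) stood at 58.5, 34.3 and 32.1 CPM with vehicle and 35.7, 46.8 and 42.4 CPM with panobinostat. Its next neighbour Ifit3 begins 6584 bases downstream and ranged from 0.417 to 1.61 CPM, and Ifit3b from 0.203 to 1.01 CPM. Ifit1 (chr19:34640889-34650009), at the far end, stood at 0.505, 0.803 and 0.377 CPM with vehicle and 0.250, 0.253 and 0.593 CPM with panobinostat. Those values are 9 to 28 counts per library. Per kb of exon, Ifit2 was 21.6 times Ifit3, 39.0 times Ifit3b and 60.7 times Ifit1. The windows of Ifit1, Ifit3 and Ifit3b held the ISRE core printed above, and the windows of Ifit2 did not hold these letters.

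Parp14, Dtx3l and Parp9 lie together on chromosome 16 and were alike in level, at 6.10, 6.70 and 4.98 CPM per kb. Parp9 and Dtx3l form a ubiquitin ligase complex involved in DNA damage and interferon responses, and they share 458 exon bases on opposite strands. The strand setting of the counting is not given in the sources used here, so reads in that overlap cannot be assigned. The same limit holds for other members that share exon bases with a gene on the opposite strand. Adar shares 1365 of 8118 bases with Chrnb2, Slfn5 559 of 6326 with Slfn5os, and Ifi35 290 of 1727 with Gm11626. Smaller overlaps are those of Eif2ak2 (174 bases with Gm26637), Cxcl10 (133 with Art3) and Usp18 (124 with Gm44148). Rsad2 and Cmpk2, neighbours on chromosome 12, were both close to the detection limit. Rsad2, or viperin, which makes a chain-terminating nucleotide, had 8, 14 and 27 counts with vehicle and 13, 0 and 5 counts with panobinostat. A count of 0 allows up to 3 counts, or 0.0834 to 0.0948 CPM, and this limit covers counting error only.

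Mx1, a GTPase against influenza viruses that is defective in most laboratory mouse strains, had 45, 9 and 3 counts with vehicle and 2, 0 and 7 counts with panobinostat. Vehicle library 1 held most of the counts. Its neighbour Mx2 had 1, 2 and 0 counts in vehicle and 0 in each panobinostat library. Ifi44 had 2, 0 and 0 counts with vehicle and 0, 0 and 2 with panobinostat, and Ifi44l had 0 in all 6. Rtp4, a receptor chaperone, had 0 to 8 counts per library, and Cmpk2, a mitochondrial nucleotide kinase, 2 to 16. The chemokine Cxcl10, which draws T cells through Cxcr3, had 11, 8 and 0 counts with vehicle and 2, 12 and 12 with panobinostat.

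The rest of the lower class lay between these and the line. Sp100, a nuclear body protein, ranged from 2.61 to 6.64 CPM, and Phf11d reached 3.71 CPM. Trim30a, a regulator of Toll-like receptor signalling, ranged from 0.862 to 2.61 CPM. Slfn8 and Slfn5, of the Schlafen family, ranged from 0.574 to 2.02 and from 0.281 to 1.11 CPM. Ifi205, of the DNA-sensing p200 family, ranged from 0.167 to 0.975 CPM, Xaf1, a partner of the apoptosis inhibitor XIAP, from 0.290 to 1.07 CPM, and Ifi27l2a from 0.111 to 0.712 CPM. Part of the exon sequence is shared with other genes for Ifi205 (18.5% of its 50-base words with Ifi211), Ifi204 (14.8% with Ifi211) and Slfn8 (10.1% with Slfn10-ps), so these counts are uncertain.

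**Figure D2:**
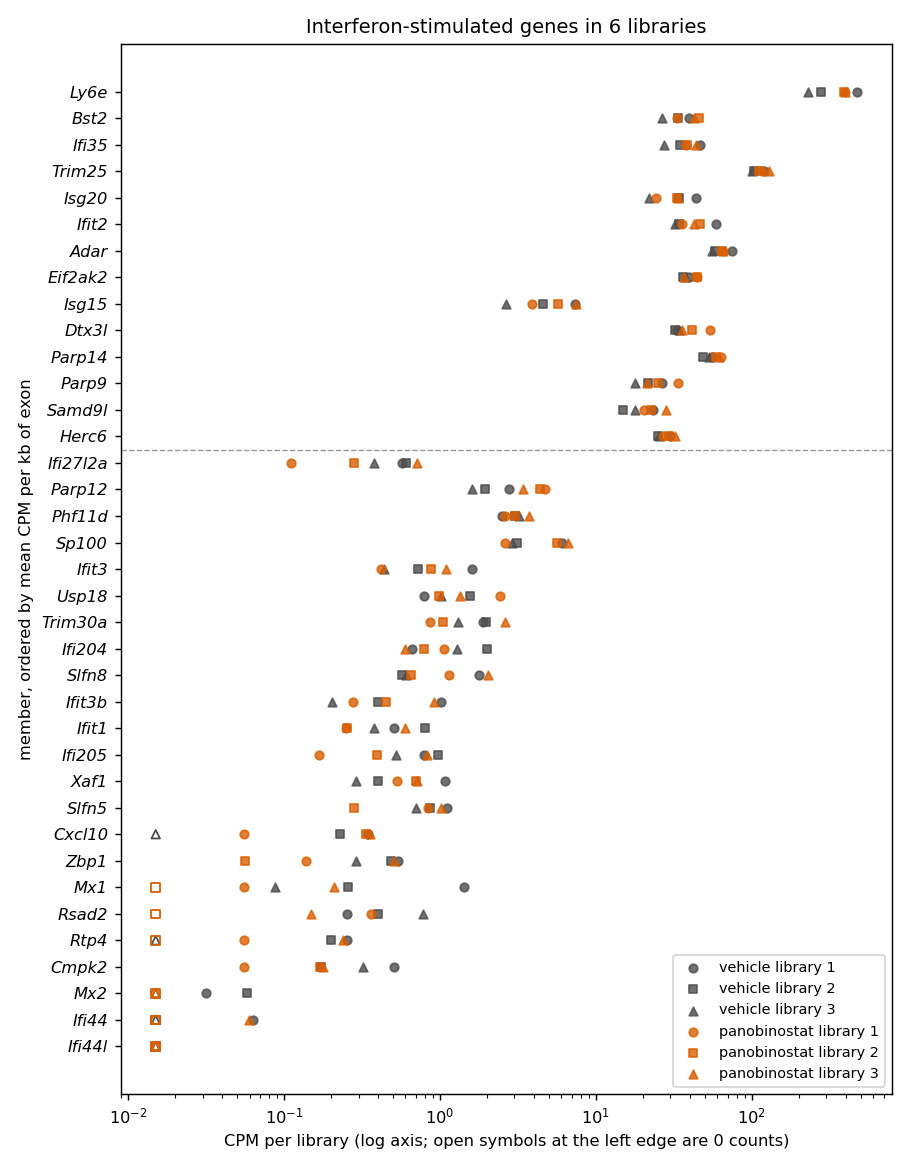
CPM of each of the 37 members in each library (log axis), with members ordered by mean CPM per kb of exon; colours mark vehicle and panobinostat libraries, symbols the library number, and open symbols at the left edge libraries with 0 counts. Ly6e stands highest at 229 to 475 CPM, Ifit1 stays at or under 0.803 CPM, Ifi44l has 0 counts in all 6 libraries, and the dashed line separates members over and under 1 CPM per kb.

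The ISRE core occurred in both level classes. Among members with a window it was found in 3 of 11 of the upper class (27.3%: Isg15, Bst2 and, after the start, Eif2ak2) and in 9 of 16 of the lower class (56.2%). The 9 were Ifit1, Ifit3, Ifit3b, Rsad2, Cxcl10, Slfn5, Slfn8, Ifi205 and Trim30a. TTCNNNGAA was found in 6 of 11 of the upper class and 0 of 16 of the lower. A member was counted if any of its windows matched, and members with more windows had more room for a match. Among those 6, Isg20 and Adar had 3 windows each and Ifit2 had 2. In the lower class Trim30a, Slfn8 and Sp100 had 2 each. The classes were drawn from the same libraries and the Ifit windows share sequence, so these shares are given with no test.

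The comparison of panobinostat with vehicle asks whether the drug moves these genes in cells labelled as lacking the receptor. With all 6 libraries no member passed. In edgeR's quasi-likelihood test, 0 of the 31 tested members were called higher and 0 lower, with a smallest adjusted p of 0.998, and over all 13207 genes tested 0.0% were called higher and 0.0% lower. DESeq2 called 0 members and 0.0681% of all genes, and limma-voom called none of either. An unadjusted p under 0.05 was found for 3 members, Parp12, Dtx3l and Parp14, and for 2.28% of all genes. The estimate was higher with panobinostat for 21 members and lower for 10, and 50.2% of all genes had a higher estimate. The median log2 fold change of the tested members was 0.14, against 0.0009 for all genes.

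The same 3 members were those whose groups did not overlap, all with panobinostat higher. That is 9.68% of the tested members, against 3.79% of all genes with panobinostat higher and 3.63% with panobinostat lower. With both directions counted, the members' share is close to these 2 shares of all genes added together. It rests on 3 genes and is no result about the list. All 3 are ADP-ribosylation enzymes or a partner of one, which is a description only. Parp12, a mono-ADP-ribosyltransferase that restricts virus translation (chr6:39086412-39118349), stood at 2.78, 1.95 and 1.60 CPM with vehicle and 4.70, 4.38 and 3.38 CPM with panobinostat. Every panobinostat library was above the highest vehicle library, and the log2 fold change was 0.98 (SE 0.31; edgeR unadjusted p 0.0171, adjusted p 0.998).

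Dtx3l, the ubiquitin ligase partner of Parp9 (chr16:35926515-35939027), stood at 33.3, 32.0 and 33.9 CPM with vehicle and 53.7, 41.3 and 35.9 CPM with panobinostat. Vehicle libraries were nearly level, and panobinostat library 1 was furthest above them. The log2 fold change was 0.40 (SE 0.16; edgeR unadjusted p 0.0437, adjusted p 0.998). Parp14, a macrodomain mono-ADP-ribosyltransferase (chr16:35831892-35871518), stood at 55.3, 48.6 and 53.0 CPM with vehicle and 63.3, 58.8 and 61.4 CPM with panobinostat. Its groups were 52.3 ± 3.37 and 61.2 ± 2.26 CPM (SD, n = 3), and the log2 fold change was 0.23 (SE 0.093; edgeR unadjusted p 0.0493, adjusted p 0.998). Parp9, which shares exon bases with Dtx3l, stood at 26.4, 21.5 and 17.7 CPM with vehicle and 33.7, 24.9 and 21.3 CPM with panobinostat, and its groups overlapped.

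The other 28 tested members overlapped between groups. Ly6e had a log2 fold change of 0.27 (SE 0.27), Bst2 0.29 (SE 0.19), Samd9l 0.36 (SE 0.21), Isg15 0.23 (SE 0.43) and Usp18 0.50 (SE 0.46). Ifit2 had the same mean in both groups, 41.6 ± 14.6 CPM with vehicle and 41.6 ± 5.61 CPM with panobinostat (SD, n = 3). The lowest estimates were among members with few counts, namely Rsad2 at -1.48 (SE 1.04) and Zbp1 at -0.91 (SE 0.78). Ifi204, of the DNA-sensing p200 family, stood at 0.663, 2.01 and 1.28 CPM with vehicle and 1.06, 0.787 and 0.593 CPM with panobinostat, with a log2 fold change of -0.69 (SE 0.49). For such members the standard errors were large beside the estimates.

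**Figure D3:**
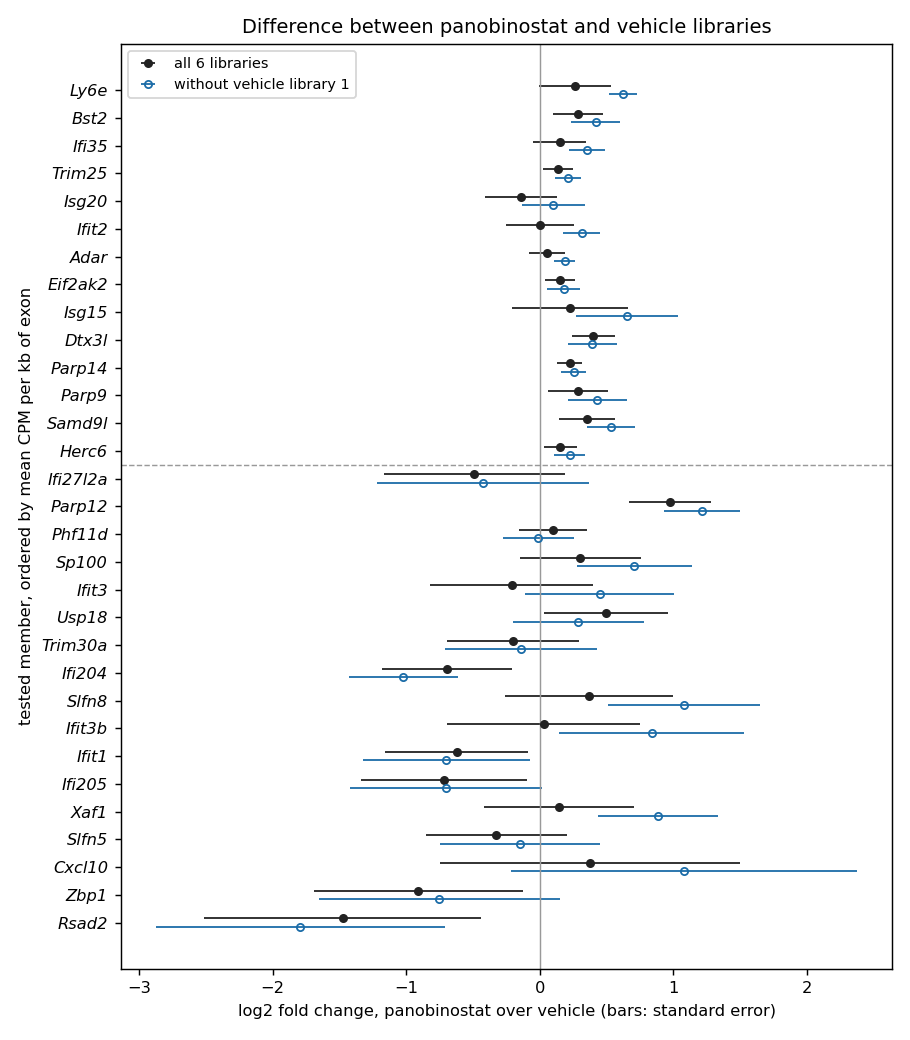
Log2 fold change of panobinostat over vehicle for the 31 tested members with its standard error, from all 6 libraries (filled) and without vehicle library 1 (open), ordered by mean CPM per kb of exon, with the dashed line between members over and under 1 CPM per kb. With all libraries the estimates run from -1.48 for Rsad2 to 0.98 for Parp12, and the longest bars from all libraries are those of Cxcl10 (standard error 1.13) and Rsad2 (1.04).

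In the upper class, vehicle libraries 2 and 3 were the low libraries and vehicle library 1 lay with the panobinostat libraries. The lowest value was in vehicle library 2 or 3 for 14 of 14, 5 in library 2 and 9 in library 3, and the same held for 37.3% of all genes tested. For 8 of the 14 both of these libraries were under each of the other 4, against 19.1% of all genes. The highest value was in vehicle library 1 for 5, in panobinostat library 1 for 4, in panobinostat library 3 for 4 and in panobinostat library 2 for 1. After the mean of each gene's log2 CPM was subtracted, the median of the upper class was 0.16, -0.14 and -0.29 in vehicle and 0.02, 0.11 and 0.15 in panobinostat libraries. The estimate was higher with panobinostat for 13 of the 14, all but Isg20 at -0.14 (SE 0.27), with a median of 0.19. The ratio of group means lay between 0.908 and 1.32. The centred median of mast cell and basophil markers, 9 of 10 tested, was also lowest in vehicle libraries 2 and 3. It was 0.15, -0.70 and -1.21 in vehicle and 2.36, -0.11 and -0.10 in panobinostat libraries. Single markers differed: Ms4a2 and Hdc were lowest in vehicle library 1, Tpsb2 in panobinostat library 2 and Prss34 in panobinostat library 3. The list summed to 1511 to 1777 CPM with vehicle and 1725 to 3539 CPM with panobinostat, most of it Gata2, Hdc and Ms4a2. Mcpt8 was at 0 in vehicle library 3. Megakaryocyte markers, 5 of 8 tested, summed to 244, 51.5 and 50.9 CPM with vehicle and 69.6, 131 and 159.5 CPM with panobinostat, with Gp6 at 0 in all libraries but vehicle library 1. In all libraries Gata2 ranged from 649 to 1112 CPM, Hdc from 420 to 1325 CPM and Ms4a2 from 239 to 695 CPM. Whether leukaemia cells or other cells express these markers was not tested, and neither was their part in the upper class.

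Members of the lower class followed another order of libraries. Of 17 tested, 8 had a higher and 9 a lower estimate, with a median of -0.20, and 5 had their lowest value in vehicle library 2 or 3. Their centred median was 0.50, 0.29 and -0.20 in vehicle and -0.65, -0.34 and 0.48 in panobinostat libraries. By this median, panobinostat library 1 was lowest and library 2 next, as with T cell, B cell and monocyte and macrophage markers. The centred median of T cell markers, 13 of 14 tested, was 1.02, 0.81 and 0.24 in vehicle and -2.06, -0.64 and 0.59 in panobinostat libraries. Their summed level was 12.2 to 18.0 CPM with vehicle and 2.47 to 15.6 CPM with panobinostat, and Cd5 and Cd8b1 were at 0 in panobinostat library 1. B cell markers, 14 of 14 tested, summed to 67.3 to 197 CPM with vehicle and 11.6 to 81.5 CPM with panobinostat, with Pax5 at 0 in panobinostat library 1. Monocyte and macrophage markers, 12 of 14 tested, summed to 23.3 to 32.4 CPM with vehicle and 16.1 to 38.2 CPM with panobinostat. Their centred median was 0.60, 0.01 and -0.16 in vehicle and -0.53, -0.32 and 0.63 in panobinostat libraries. The lower members summed to 26.5, 20.8 and 16.3 CPM with vehicle and 18.7, 20.3 and 27.8 CPM with panobinostat. By sum, the lower members were thus lowest in vehicle library 3. The part of other cells in their values was not tested. In bulk RNA, fewer cells of a type and less RNA per cell cannot be told apart. Markers of plasmacytoid dendritic cells, the main producers of type I interferon, had 5 of 10 tested and summed to 91.7 to 155 CPM with vehicle and 97.5 to 134 CPM with panobinostat. Most of that sum was Smim5 at 68.1 to 125 CPM, while the defining marker Siglech was at 0 to 0.174 CPM. The centred median of the list was 0.39, -0.08 and -0.24 in vehicle and -0.35, -0.32 and 0.45 in panobinostat libraries, again with panobinostat library 1 lowest and library 2 next.

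**Figure D4:**
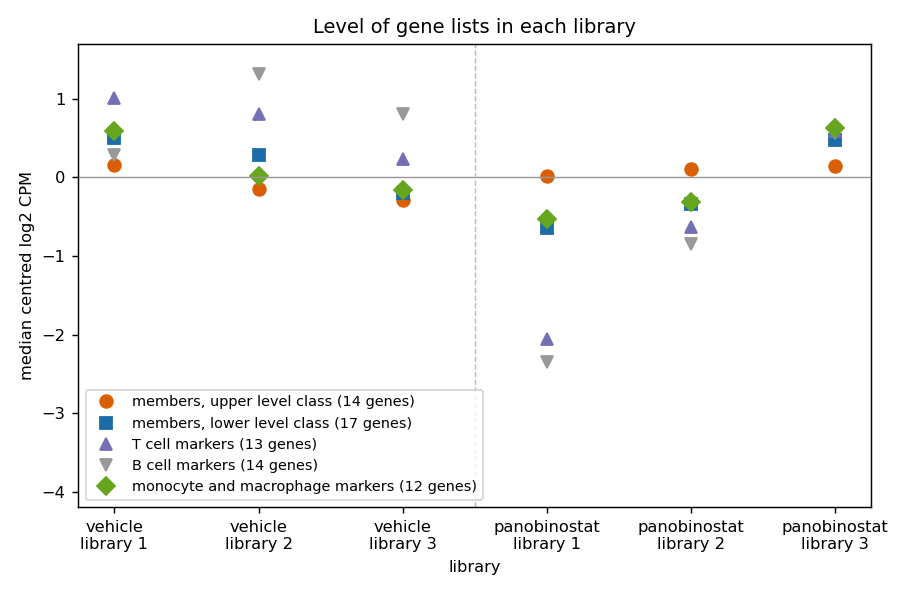
Median over genes of log2 CPM, centred on each gene's mean of the 6 libraries, for interferon-stimulated genes over and under 1 CPM per kb and for the marker lists named in the legend; each symbol is 1 list in 1 library. The upper class stays between -0.29 and 0.16, while the lower class is lowest in panobinostat library 1 at -0.65, where T cell markers are at -2.06.

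The comparison changed without vehicle library 1. Of 13369 genes tested, 2.0% were then called higher and 0.419% lower. Among the members 1 was called higher, Ly6e, with a log2 fold change of 0.62 (SE 0.11; edgeR adjusted p 0.0499), which is close to the threshold. Marker lists differed in this comparison. The estimate was higher for 10 of 10 mast cell and basophil markers, with a median of 2.34 and 1 called. It was higher for 4 of 5 megakaryocyte markers, with a median of 0.74 and 0 called. It was also higher for 6 of 12 monocyte and macrophage, 4 of 10 erythroid and 2 of 5 plasmacytoid dendritic cell markers. The same held for 1 of 6 granulocyte and 1 of 1 NK cell markers, but for 0 of 14 B cell and 0 of 13 T cell markers. The part of these markers in the members' values was not tested. The estimate was higher for 22 of the 31 tested members and lower for 9, with a median of 0.29 against -0.008 for all genes. Every panobinostat library was above vehicle libraries 2 and 3 for 12 of the 31 (38.7%) and for 9 of the 14 in the upper class (64.3%), against 20.9% of all genes. In either direction the groups did not overlap for 14 of the 31 (45.2%), against 40.9% of all genes, which is close to that background. All 14 of the upper class then had a higher estimate, with a median of 0.34. The lowest value of each of these 14 was already in vehicle library 2 or 3, so this is no separate result. For Ly6e the library left out was the highest of all 6. Parp12 had a log2 fold change of 1.22 (adjusted p 0.0947 in edgeR), past no threshold.

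Panobinostat library 1 held the highest mast cell and the lowest T cell and B cell marker medians. Its centred medians of erythroid (-1.19, 10 tested) and granulocyte markers (-1.66, 4 tested) were also the lowest. Erythroid markers summed to 23597, 14030 and 7919 CPM with vehicle and 2962, 17636 and 22767 CPM with panobinostat. NK cell markers, with 1 tested, were lowest in vehicle library 2, at -2.13. The part of these markers in the members' values was not tested. The comparison was also run without both libraries numbered 1. Of 13239 genes tested, 7.36% were called higher and 4.65% lower. Among the members 3 were called higher and 0 lower, and 3 of 31 is close to the background of higher calls. They were Ly6e (adjusted p 0.0175), Sp100 (0.0358) and Bst2 (0.0462), by edgeR. The median of the tested members was 0.23, with 24 higher and 7 lower estimates. Groups did not overlap in either direction for 20 of the 31 (64.5%), against 58.9% of all genes. With only panobinostat library 1 left out this held for 5 of 32 tested members, against 15.7% of all genes. With only panobinostat library 3 left out it held for 10 of 32, 4 higher and 6 lower, against 14.9% of all genes. Vehicle library 1 is 1 of only 3 vehicle libraries, and nothing in the labels sets it apart.

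The other genes of the interferon system gave no call with all 6 libraries. Of 21 interferon ligand genes, 20 had at most 3 counts in every library, Ifnb1 with 0 in each, and Ifnz alone was tested, at 0.253 to 0.474 CPM. Irf9, the DNA-binding part of ISGF3, stood at 58.3 ± 4.15 CPM with vehicle and 53.5 ± 6.37 with panobinostat (SD, n = 3). Stat2 ranged from 49.6 to 73.2 CPM. Ifnar2, the other receptor subunit, ranged from 47.9 to 58.2 CPM. Irf7, the factor that amplifies interferon production and is itself interferon-induced, was low, at 2.06 to 3.79 CPM. Among 18 receptor, JAK and STAT genes, all tested, 11 had higher and 7 lower estimates, with a median of 0.03. Among 9 IRF genes 5 were higher and 4 lower, with a median of 0.02, and Irf8, a factor of B cells and dendritic cells, stood at 1.90, 2.93 and 2.26 CPM with vehicle and 0.334, 0.956 and 1.78 CPM with panobinostat. These groups did not overlap, and Irf8 was lowest in panobinostat libraries 1 and 2, where B cell markers were also lowest by summed level. The part of B cells in the values of Irf8 was not tested.

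Sensors and adaptors had 13 of 15 genes tested, 7 higher and 6 lower, with a median of 0.08. Tlr9, which had the smallest p of this list, was lower with panobinostat without overlap, though at few counts. It stood at 0.442, 1.09 and 0.580 CPM with vehicle and 0.111, 0.365 and 0.267 CPM with panobinostat. Ifih1, the RNA sensor MDA5, went the other way without overlap. It stood at 17.5, 16.6 and 15.5 CPM with vehicle and 21.3, 20.8 and 18.1 CPM with panobinostat. The OAS family, enzymes that respond to double-stranded RNA, had 11 of 13 tested, 9 higher and 2 lower, with a median of 0.25. Its 2 genes with the smallest p, Oas1g and Oas1a, were higher with panobinostat without overlap. Oas1a stood at 1.64, 4.36 and 3.94 CPM with vehicle and 9.81, 6.94 and 11.6 CPM with panobinostat. Oas1g stood at 1.23, 2.67 and 2.67 CPM with vehicle and 6.28, 4.53 and 7.44 CPM with panobinostat. Their log2 fold changes were 1.51 (SE 0.41) for Oas1a and 1.47 (SE 0.38) for Oas1g. Of 56 other interferon-induced genes, 54 were tested, 31 higher and 23 lower, with a median of 0.08. Gbp3, a guanylate-binding protein that interferon gamma also induces, stood at 2.78, 1.23 and 1.71 CPM with vehicle and 4.98, 5.003 and 4.06 CPM with panobinostat, again without overlap. Gbp7 stood at 61.3, 40.6 and 33.5 CPM with vehicle and 95.4, 82.8 and 79.2 CPM with panobinostat, also without overlap. Its log2 fold change was 0.93 (SE 0.23), and that of Gbp3 was 1.29 (SE 0.35). Each of these 5 lists and the ligands had 0 members past the threshold, and each gene named here had an edgeR adjusted p of 0.998 or more where it was tested. The members' median of 0.14 lay between those of the OAS family and of the sensors.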

How the data were processed

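mRNA libraries were sequenced, and the authors deposited 1 table of whole-number read counts per Entrez gene for 6 libraries. No normalization shows in these values. The build is mm10, and the tools listed include HISAT2 2.1.0, cutadapt 2.1, Subread 2.0.0 and featureCounts, per the submitters' processing notes. The annotation and strandedness used were not given in the sources used here, so counts of overlapping or near-identical genes are uncertain.

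Identifiers were matched to symbols and positions in RefSeq GRCm38.p6, the same assembly (25275 of 27179 matched), and exon lengths came from GENCODE M21. Counts were tested in edgeR 4.0.16 (R 4.3.3) with filterByExpr at a minimum count of 10, TMM factors and the robust quasi-likelihood F-test, two-sided, with Benjamini and Hochberg adjustment over all genes tested and a threshold of 0.05. DESeq2 1.42.0 and limma-voom (limma 3.58.1) were alternatives. CPM uses TMM-scaled library sizes. The main fit was tested on simulated counts. It called 30 of 100 simulated 2-fold changes and 67 of 99 simulated 4-fold changes, with 9 false calls. An absence of calls with these 6 libraries therefore does not show an absence of change. A standard error is the log2 fold change divided by the square root of F. Means are given with the SD of 3 libraries.

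Members and lists were chosen with earlier results of these data known. Values per library are given for Isg15, Ifit1, Mx1, Bst2 and Usp18, the 8 tested members with the smallest p, the 8 with the highest mean CPM, members whose groups do not overlap and undetected members. In other lists they are given for genes fixed by name or among the 2 smallest p. Parp9, Rsad2's neighbours, Cxcl10 and some ranges were added after values were seen. Further alternatives were other scalings and filters, the replicate block, and libraries left out.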

Additional observations from a re-analysis of the deposited data

How the results depend on the processing

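Other scalings, filters and tools left the members' median between 0.08 and 0.22, but it depended on single libraries. Without vehicle library 3 it was -0.02, with 14 of 31 estimates higher. Without panobinostat library 3 it was 0.007, with 16 of 32 higher, and without vehicle library 1 it was 0.29, with 22 of 31 higher. The pooled SD of the members' median between libraries was 0.22, larger than the median of 0.14 with all 6. DESeq2 called 7 genes higher and 2 lower. With 1 library left out in turn, calls ran from 0 to 268 higher and 0 to 56 lower over all genes, from 0 to 1 member higher, and groups did not overlap for 3 to 14 members. The high ends come from leaving out vehicle library 1, where groups did not overlap for 40.9% of all genes. Without panobinostat library 3 they did not overlap for 10 members and 14.9% of all genes. Without both libraries numbered 1, edgeR called 974 genes higher and 616 lower and 3 members higher, and groups did not overlap for 20 members and 58.9% of all genes. Fewer libraries make non-overlap easier by construction. Other causes were not tested.

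Single members with small estimates changed sign. Ifit2, at 0.00, was -0.0057 with RLE factors and with DESeq2, -0.012 with library size alone, -0.0024 with upper-quartile factors and -0.010 with a mean of at least 1 CPM. Without both libraries numbered 1, the log2 fold change was 0.76 for Ifit3, -0.15 for Usp18, 0.0054 for Ifi27l2a, 0.14 for Trim30a and 0.24 for Isg20. With 1 library left out in turn it ran from -0.54 to 0.45 for Ifit3, -0.36 to 0.10 for Isg20, -0.046 to 0.21 for Phf11d, -0.15 to 0.31 for Ifit2, -0.56 to 0.84 for Ifit3b, -0.18 to 0.89 for Xaf1 and -0.024 to 0.19 for Adar. It ran from -0.066 to 0.65 for Isg15, -0.011 to 0.36 for Ifi35, -0.20 to 1.08 for Cxcl10, -0.86 to 0.080 for Trim30a, -0.67 to 0.048 for Slfn5 and -0.14 to 1.08 for Slfn8. The causes were not tested. Parp12, Dtx3l and Parp14 kept a higher estimate in every setting. Since their groups did not overlap, leaving out libraries could not reverse the difference, so this is no sign of stability.

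With the column number as a replicate block, 0 genes were called higher and 0 lower, 468 had an unadjusted p under 0.05 against 301 without the block, and the members' median was 0.15. Libraries with the same number had correlations of deviations of -0.14, 0.07 and -0.20, and not every library correlated best with its own number, so the numbers are not taken as pairs.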
